A study of Mus musculus with 35 samples.

Results

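The 10 genes described here code for non-collagen proteins of the extracellular matrix that fibroblasts lay down: Postn, Fn1, Fbn1, Sparc, Lox, Loxl2, Thbs1, Tnc, Dcn and Lum. They were taken as a named list, all 10 were found among 21631 protein-coding genes of the GRCm38.p6 table, and each is described through the peaks over the gene and 50 kb to either side, called its window below. The study followed mouse embryonic fibroblasts (MEF) during reprogramming to pluripotency by chromatin immunoprecipitation and sequencing (ChIP-seq) of histone H3 acetylated at lysine 27 (H3K27ac), which active promoters and active enhancers carry, and of the transcription factor KLF4. All fibroblast-derived samples were C57BL/6 x 129 with the genotype OKSM Col1a1/M2rtTA ROSA26, that is, a polycistronic cassette for Pou5f1, Klf4, Sox2 and Myc in the Col1a1 locus and its doxycycline-dependent activator in Rosa26. MEF were unsorted and, by the labels of both H3K27ac libraries, had no doxycycline, while the label of the MEF input library, not analysed here, names the doxycycline medium. Cells of days 3, 6 and 9 were induced with doxycycline (1 µg/ml) in ESC medium that held ascorbic acid (50 µg/ml). Those of day 3 were unsorted, and those of days 6 and 9 were sorted as SSEA+. Embryonic stem cells (ESC) were the V6.5 line, C57BL/6 x 129, without the cassette, in serum and LIF on irradiated feeder cells, and the 2i ESC had in addition a MEK inhibitor at 1 µM and a GSK3 inhibitor at 3 µM. For H3K27ac there were 3 libraries each from days 3 and 6 and 2 each from MEF, day 9 and serum ESC. For KLF4, which was not profiled in MEF here, days 3, 6 and 9, serum ESC and 2i ESC gave 2 each.

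Fibroblasts hold their tissue together with a secreted meshwork in which fibronectin and fibrillin form fibres, lysyl oxidases cross-link collagen and elastin, small leucine-rich proteoglycans bind collagen fibrils, and matricellular proteins such as periostin, SPARC, thrombospondin and tenascin tune how cells attach. Early embryonic cells make fibronectin too, together with the laminins of basement membranes. KLF4 is one of the induced factors and also belongs to the network of the pluripotent state. An H3K27ac peak in a window says that chromatin there carried the mark and does not give the level of the gene's RNA.

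Start-site sequences of the 4 members in the RefSeq promoter table (GRCm38.p6) are shown because the peak lists differ at them: KLF4 had a peak over those of Fbn1 and Tnc at day 3, and in no library over those of Postn and Sparc. Each is the 250 bases before a start listed there, 5′ to 3′, in lower case. That listed start is called the first base, and for Fbn1, Tnc and Postn it lies inside the gene coordinates given below. Capitals mark matches to the KLF4 motif GGGNGTGG or to the TATA box TATAAA, searched on both strands. The AP-1 motif TGANTCA was also searched and had no match in any of them.
Fbn1, chr2:125506439-125506688, minus strand: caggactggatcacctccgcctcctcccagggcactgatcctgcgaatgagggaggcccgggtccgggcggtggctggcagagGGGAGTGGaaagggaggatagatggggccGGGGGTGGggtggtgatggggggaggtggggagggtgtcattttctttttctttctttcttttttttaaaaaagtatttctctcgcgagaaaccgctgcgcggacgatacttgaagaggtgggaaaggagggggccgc
Tnc, chr4:64046937-64047186, minus strand, the nearer of its 2 listed starts to the gene body: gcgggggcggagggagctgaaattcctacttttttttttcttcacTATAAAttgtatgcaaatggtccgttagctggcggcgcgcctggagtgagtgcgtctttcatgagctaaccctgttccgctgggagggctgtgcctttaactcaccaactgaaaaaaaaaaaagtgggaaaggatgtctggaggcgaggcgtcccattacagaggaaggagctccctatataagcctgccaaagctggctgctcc
Postn, chr3:54360857-54361106, plus strand, the second of its 2 listed starts: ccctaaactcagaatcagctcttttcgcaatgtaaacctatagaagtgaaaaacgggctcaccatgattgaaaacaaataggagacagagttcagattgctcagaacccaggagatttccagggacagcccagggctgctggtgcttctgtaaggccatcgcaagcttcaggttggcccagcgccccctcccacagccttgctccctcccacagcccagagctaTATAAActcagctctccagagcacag
Sparc, chr11:55420081-55420330, minus strand: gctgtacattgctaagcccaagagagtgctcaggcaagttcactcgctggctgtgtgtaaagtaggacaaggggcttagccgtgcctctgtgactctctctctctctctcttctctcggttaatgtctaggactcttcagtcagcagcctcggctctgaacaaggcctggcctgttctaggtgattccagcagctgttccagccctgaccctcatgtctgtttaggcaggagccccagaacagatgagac
The Fbn1 stretch held 2 matches to GGGNGTGG, which begin 167 and 138 bases before the first base. Those of Tnc, Postn and Sparc held 0 matches to these letters. The motif was found in 15.9% of 32851 promoters of the same length, TATAAA in 12.4% and TGANTCA in 6.75%. The TATAAA match of Postn begins 26 bases before its first base, and that of Tnc begins 205 bases before. A match is a description of the letters, not a binding site. All 4 stretches lay under an H3K27ac peak in both MEF libraries. In ESC the Sparc stretch lay under a peak in both libraries, and those of Fbn1, Tnc and Postn in neither. The KLF4 peaks over the Fbn1 stretch were in both day 3 libraries and 1 of 2 day 6 libraries, and those over the Tnc stretch in both day 3 libraries and no later one.

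The lists themselves differed greatly in size. H3K27ac lists held 17493 to 88347 peaks covering 9.21 to 83.5 Mb, smallest at day 6 and largest in MEF, and KLF4 lists 21129 to 34640 peaks covering 4.45 to 15.2 Mb. Read depth is not given. Codes in the sample titles, such as DG-3458, are read as batches and called so below. The titles do not say what these codes stand for. Levels below are the percent of a window covered by peaks, as deposited. Differences and tests use the percent scaled to equal total covered length, on the log2(percent + 0.1) scale, with limma across all protein-coding genes with a peak in at least 2 libraries (19778 for H3K27ac, 18861 for KLF4) and Benjamini-Hochberg adjustment. They therefore compare a window with the rest of its own list. Without the scaling the median log2 difference over all genes moved from 0.21 to -0.12 in ESC against MEF, from 0.07 to -1.12 in day 3 against MEF, from 0.20 to -0.70 in day 6 against day 3, from 0.00 to 1.65 in day 9 against day 6 and from -0.19 to 0.13 in ESC against day 9. Markers went with the labels: 8 of 10 fibroblast markers were lower and 9 of 10 pluripotency markers higher in ESC than in MEF. The summed coverage of the fibroblast markers over gene and 2.5 kb was 329.7 to 342.8 percent in MEF, 66.7 to 122.7 at day 3, 6.67 to 23.6 at day 6, 14.4 to 19.7 at day 9 and 11.8 to 17.8 in ESC. In ESC, which were grown on feeder cells, 3 of the 10 (Col1a2, Col3a1 and Thy1) had no peak over gene and 2.5 kb and 7 had one in at least 1 library, with the highest coverage at Twist1 (9.45% and 7.40%) and Col1a1 (5.06% and 1.15%). The part of feeder chromatin in the ESC values was not tested.

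Between MEF and ESC, 8 of the 10 genes lost H3K27ac and 2 gained it. Postn, Fbn1, Lox, Loxl2, Thbs1, Tnc, Dcn and Lum were lower in ESC, and Fn1 and Sparc were higher. Over all genes tested, 25.5% were lower and 36.4% higher by the same rule. The members' median log2 difference was -4.55, beside 0.21 over all genes, with Postn and Tnc, at 0 in ESC, entering at values that the pseudocount sets. Without scaling the split over all genes was 27.2% lower and 22.1% higher, and the 8 lower calls stood, while Fn1 and Sparc were still above MEF but did not pass the test. With equal numbers of top peaks 5 lower calls stood: Dcn, left with a peak in 1 MEF library, did not pass (adjusted p = 0.188, limma), and Postn and Lum had too few peaks to be tested. The Sparc call ended with windows of 10 kb (adjusted p = 0.0631, limma).

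**Figure D1:**
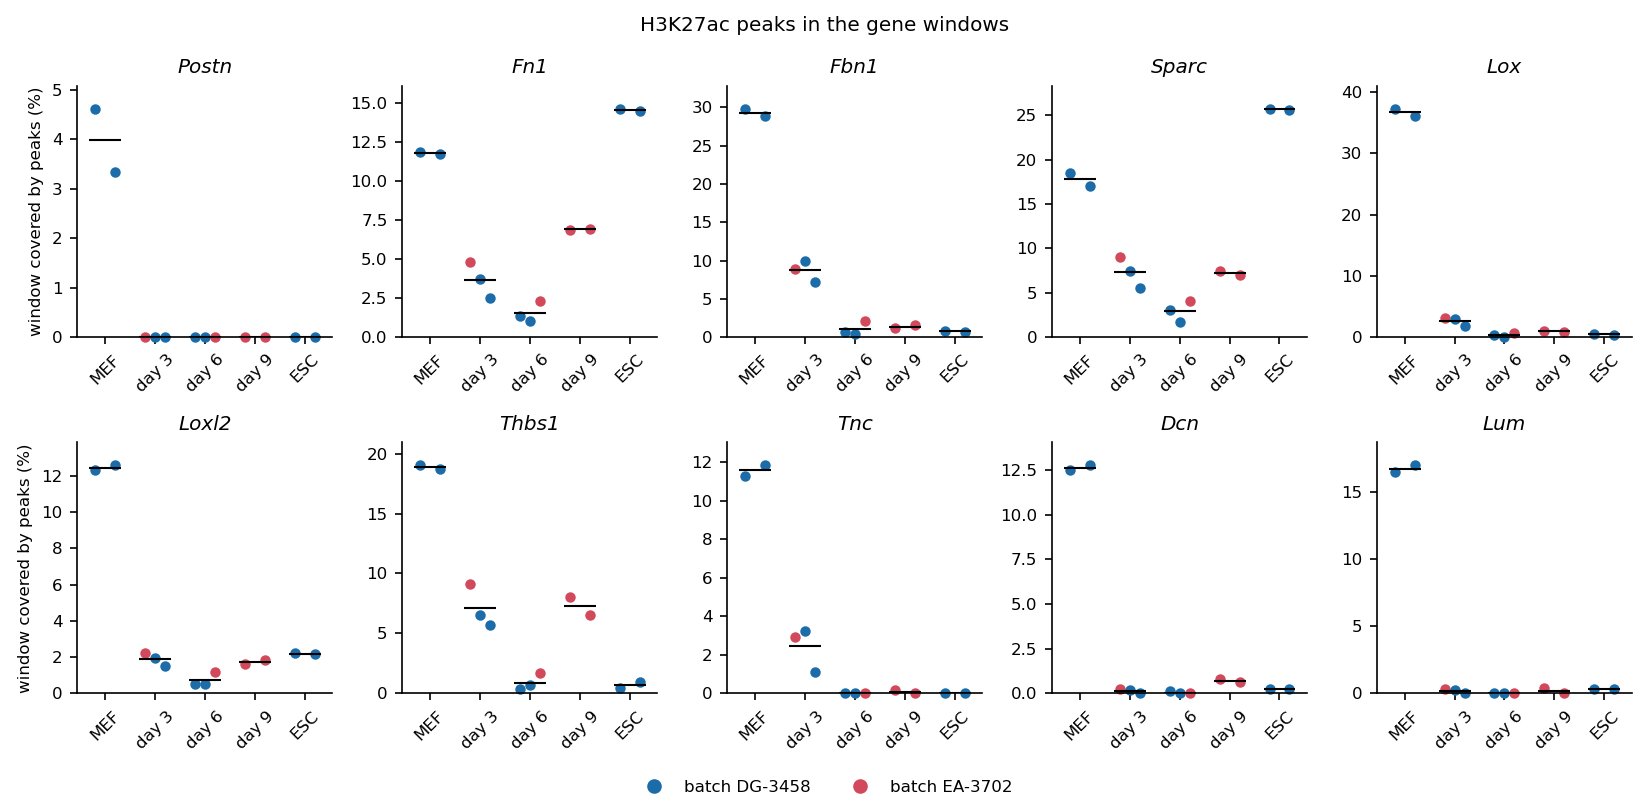
Percent of each gene's window (gene and 50 kb to either side) covered by H3K27ac peaks, 1 point per library. Colours give the code in the sample title, read as a batch, and a line marks the mean of each stage. The y axis starts at 0 and differs between genes. Postn, Tnc, Dcn and Lum fall to or near 0 after day 3 or earlier, while Fn1 and Sparc have their highest points in ESC.

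Postn, which codes for periostin, a matricellular protein of injured and growing connective tissue, lies at chr3:54359267-54391041. It had 4.62% and 3.34% of its window covered in the MEF libraries and no peak in any of the other 10 H3K27ac libraries. This was the lowest MEF level of the 10, between the 42.8th and 53.1st percentile of all protein-coding genes of those lists. Its 4 MEF regions, 3 of them at or between its 2 listed starts, were absent at every later stage. Where all libraries of a stage are at 0 the spread within that stage is also 0, so the p-values of such contrasts are too small, and the size of their log2 difference is set by the pseudocount and is not given here.

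Dcn and Lum code for decorin and lumican, small leucine-rich proteoglycans that bind collagen fibrils, and are neighbours on chromosome 10 (97479500-97518163 and 97565501-97572703), so that their windows overlap and share regions. Dcn coverage was 12.5% and 12.8% in MEF, 0.247%, 0.174% and 0% at day 3, 0.149%, 0% and 0% at day 6, 0.799% and 0.634% at day 9, and 0.245% and 0.244% in ESC. The highest later library, at day 9, was thus far below both MEF libraries. In ESC against MEF the scaled difference was -4.66 ± 0.95 (SE; limma, adjusted p = 0.00236). Lum coverage was 16.5% and 17.0% in MEF, 0.31995%, 0.225% and 0% at day 3, 0% in all 3 day 6 libraries, 0.377% and 0% at day 9, and 0.317% and 0.315% in ESC. Its scaled difference in ESC against MEF was -4.82 ± 0.79 (SE; limma, adjusted p = 0.000644). All 16 MEF regions of Dcn and all 13 of Lum were absent in ESC, and none was present at day 3.

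Lox, on chromosome 18 (52516060-52529867), codes for lysyl oxidase, the copper enzyme that starts the cross-linking of collagen and elastin. Its window was the most densely covered of the 10 in MEF, at 37.2% and 36.1%, above the 99.8th percentile of all genes. Coverage was 3.12%, 2.94% and 1.77% at day 3, 0.280%, 0.0844% and 0.631% at day 6, 0.996% and 0.894% at day 9, and 0.489% and 0.414% in ESC. The scaled difference in ESC against MEF was -5.58 ± 0.44 (SE; limma, adjusted p = 5.35e-06). Of 19 MEF regions 18 were absent in ESC. The remaining region overlaps the neighbouring gene Srfbp1 and was present at every stage. The strongest MEF region, over the gene, had a deposited −log10 p of 221.3 and 219.1 in MEF, 11.7 to 26.3 at day 3, no peak at day 6 or in ESC, and 3.69 and 3.50 at day 9.

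Loxl2 codes for a lysyl oxidase-like enzyme of the same family and lies at chr14:69608692-69695834. Its coverage was 12.3% and 12.6% in MEF, 2.22%, 1.94% and 1.498% at day 3, 0.510%, 0.497% and 1.19% at day 6, 1.61% and 1.84% at day 9, and 2.23% and 2.15% in ESC. The scaled difference in ESC against MEF was -2.06 ± 0.14 (SE; limma, adjusted p = 1.87e-06), the smallest fall of the 8. What ESC kept lay over neighbours: the 2 regions found in both MEF and ESC overlap R3hcc1 and Chmp7, and both regions found in ESC and not in MEF overlap R3hcc1. None of the 4 ESC regions overlapped Loxl2 itself. Its strongest MEF region, within the gene, had a −log10 p of 123.1 and 121.3 in MEF and 11.3 to 22.2 at day 3, and no peak later.

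Fbn1, at chr2:125300594-125506485, codes for fibrillin-1, the backbone of elastic microfibrils and a store for latent TGF-beta. It was covered by 74 and 80 H3K27ac peaks in the MEF libraries, 29.8% and 28.9% of the window. Day 3 libraries covered 8.94%, 10.0% and 7.20%, day 6 libraries 0.672%, 0.359% and 2.11%, day 9 libraries 1.17% and 1.62%, and ESC libraries 0.793% and 0.718%. The ranges of MEF, day 3 and later stages did not overlap. In ESC against MEF the scaled difference was -4.66 ± 0.38 (SE; limma, adjusted p = 6.09e-06). The strongest MEF region, 17094 bp wide at the far end of the gene from its start, had a −log10 p of 113.4 and 98.5 in MEF and 12.1 to 18.4 at day 3. A peak remained there in 1 of 3 day 6 libraries, 1 of 2 day 9 libraries and no ESC library. The region over the start of Fbn1 (chr2:125503946-125507438) lasted longer, with a peak in both MEF, all 3 day 3, all 3 day 6 and both day 9 libraries and in 1 of 2 ESC libraries.

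Thbs1 codes for thrombospondin 1, a matricellular protein that activates latent TGF-beta, and lies at chr2:118111876-118127133. Coverage was 19.04% and 18.7% in MEF, 9.13%, 6.50% and 5.73% at day 3, and 0.360%, 0.670% and 1.68% at day 6. At day 9 it was 8.04% and 6.53%, above all 3 day 6 libraries, and in ESC it was 0.490% and 0.924%. The scaled difference in ESC against MEF was -4.15 ± 0.39 (SE; limma, adjusted p = 1.77e-05). In the region over its start (chr2:118107821-118115765), −log10 p was 135.1 and 152.4 in MEF, 38.7 to 62.2 at day 3, 4.23 to 6.82 at day 6, 48.6 and 50.9 at day 9, and 3.62 in 1 of 2 ESC libraries. These values are not scaled between lists. With windows of 2.5 kb the scaled differences did not pass in day 6 against day 3 (-1.38; limma, adjusted p = 0.175) or day 9 against day 6 (0.20; 0.959).

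Tnc, at chr4:63959785-64047015, codes for tenascin C, a large hexameric glycoprotein of developing and wounded tissue, and no other protein-coding gene lies in its window. Coverage was 11.3% and 11.9% in MEF and 2.95%, 3.23% and 1.13% at day 3. No day 6 or ESC library had a peak, and 1 of 2 day 9 libraries had 0.195%. All 14 MEF regions were absent in ESC, and 4 of them were present at day 3. The region over its start, its strongest in MEF, had a −log10 p of 117.7 and 137.3 in MEF and 5.23 to 15.3 at day 3.

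Fn1 codes for fibronectin, the adhesive glycoprotein through which integrins grip the matrix, and lies at chr1:71585473-71653280. Its coverage was 11.9% and 11.7% in MEF, 4.83%, 3.75% and 2.497% at day 3, 1.34%, 1.06% and 2.33% at day 6, 6.86% and 6.95% at day 9, and 14.6% and 14.5% in ESC. Both ESC libraries were above both MEF libraries. The scaled difference was 0.67 ± 0.097 (SE; limma, adjusted p = 0.000303), and without scaling it was 0.30 with an adjusted p of 0.518. The strongest region, 14753 bp over the start of the gene (chr1:71642540-71657292), was present in all 12 libraries, with a −log10 p of 183.8 and 167.9 in MEF, 7.87 to 16.1 at day 6 and 59.5 and 60.3 in ESC. Of 9 MEF regions 6 were absent in ESC, and 6 others were found in ESC and not in MEF. Of those 6, 2 lay within the gene, at chr1:71634061-71636595 and chr1:71641219-71641885, and 4 at 4.65 to 49.9 kb from it. One retained region lies over the neighbouring gene Atic.

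Sparc codes for SPARC (osteonectin), a collagen-binding matricellular protein, and lies at chr11:55394159-55420080. Coverage was 18.5% and 17.0% in MEF, 9.05%, 7.50% and 5.56% at day 3, 3.08%, 1.76% and 4.03% at day 6, 7.45% and 7.05% at day 9, and 25.7% and 25.6% in ESC. It was thereby above the 98th percentile of all genes in both ESC lists. The scaled difference in ESC against MEF was 0.90 ± 0.17 (SE; limma, adjusted p = 0.00173), and without scaling 0.53 with an adjusted p of 0.232. Of its 14 MEF regions 8 were present in ESC, the highest number among the 10 genes, and 2 of these overlap the neighbours Atox1 and G3bp1. Another 7 regions were found in ESC and not in MEF, 1 within the gene (chr11:55408485-55409253) and 6 at 6.55 to 23.2 kb beyond the start. The strongest MEF region, 7.49 kb beyond the start (chr11:55427575-55430645), had a −log10 p of 172.5 and 194.3 in MEF and 18.2 and 10.7 in ESC.

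**Figure D2:**
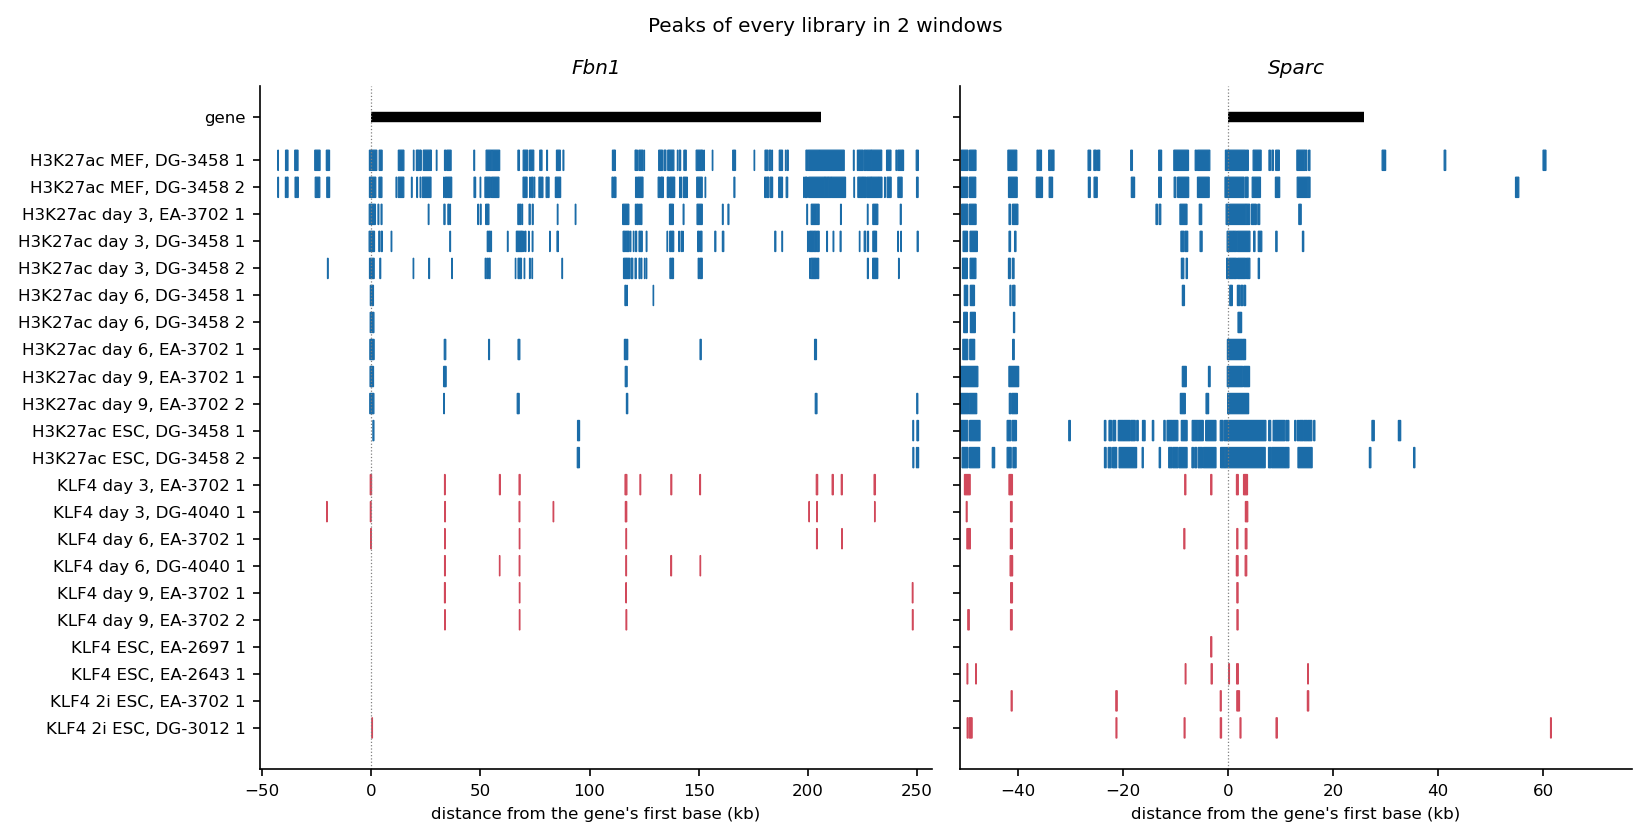
Peaks of every library in the windows of Fbn1 and Sparc, by distance in kb from the gene's first base (its listed start). The gene is a black bar, H3K27ac is blue and KLF4 is red. Peaks lie along the whole of Fbn1 in MEF (74 and 80 in the window) and few are left in ESC (5 and 4), while peaks cover more of the stretch around the start of Sparc in ESC than in MEF. Each peak is drawn with a thin outline so that narrow ones can be seen.

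Counted as consensus regions (merged peaks found in at least 2 libraries of a stage), the windows held 188 H3K27ac regions, each counted once. Of these, 142 (75.5%) were found in MEF and not in ESC, 16 (8.51%) in both, and 19 (10.1%) in ESC and not in MEF. Among all 106500 H3K27ac regions these classes made up 39.4%, 14.9% and 29.6%. Fbn1 alone gave 47 of the 142, and without it the share was 71.4% (95 of 133). Of the 19 regions found in ESC and not in MEF, Sparc held 7, Fn1 6, Fbn1 and Loxl2 2 each, and Thbs1 1, while the last lies in the shared stretch of the Dcn and Lum windows. At Fbn1, 1 of these lay within the gene (chr2:125411015-125412046, −log10 p 17.4 and 14.2 in ESC) and 1 over the neighbour Dut. That of Thbs1 overlaps its neighbour Fsip1. That of Dcn and Lum (chr10:97563317-97563663) lies 1.84 kb from Lum.

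**Figure D3:**
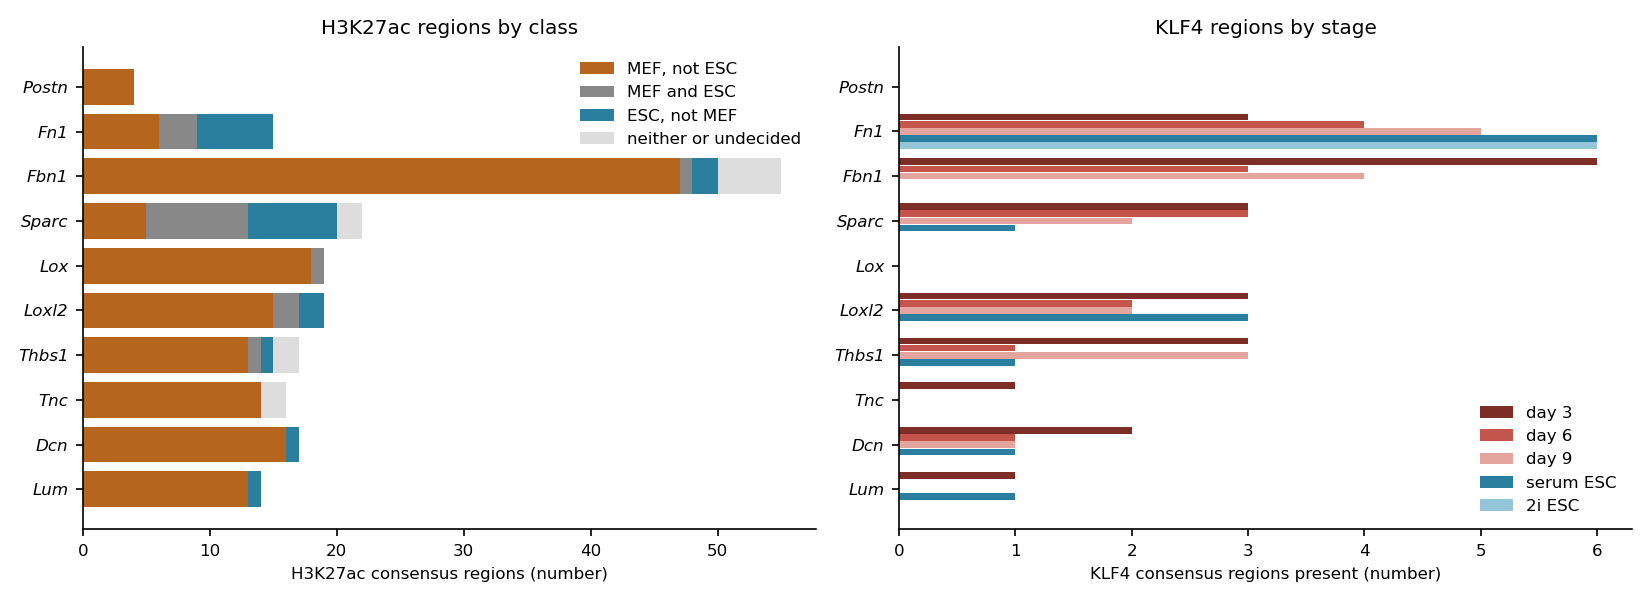
Left, number of H3K27ac consensus regions in each window by class; right, number of KLF4 consensus regions present at each stage. Regions shared by Dcn and Lum are drawn for both. Regions of MEF that ESC lack fill most of each bar except those of Fn1 and Sparc, and KLF4 regions at Fbn1 are present at days 3, 6 and 9 and at neither ESC stage.

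At day 3, 6 of the 10 were lower than in MEF (Postn, Fn1, Lox, Loxl2, Dcn and Lum) and 0 higher, while 17.6% of all genes tested were lower and 29.2% higher. Relative to their lists, Dcn fell by 4.83 ± 0.87 and Lum by 5.05 ± 0.72 on the log2 scale (SE; limma, adjusted p = 0.00184 and 0.000499). Lox fell by 2.37 ± 0.40 and Loxl2 by 1.26 ± 0.13 (adjusted p = 0.00131 and 6.43e-05, limma). For Fn1 the difference was -0.27 ± 0.089 (limma, adjusted p = 0.0339), and it was 0.30 and 0.36 with windows of 10 and 2.5 kb, which did not pass. The Fn1 call also ended (adjusted p = 0.158 and 0.117, limma) without MEF replicate 1 or replicate 2, and without day 3 DG-3458 replicate 2 (0.0771) or any 1 of the day 9 and ESC libraries (0.0512 to 0.0548). Fbn1, Sparc, Thbs1 and Tnc had differences of -0.31, 0.16, 0.02 and -0.91 that did not pass the test. For Tnc this depended on the setting: it was called lower at day 3 with a pseudocount of 0.5 (limma, adjusted p = 0.0222), with equal numbers of top peaks (-3.32, adjusted p = 0.0155, limma) and without day 9 replicate 1 or 2 (0.0445 and 0.0469). The Dcn call ended with equal numbers of top peaks (adjusted p = 0.195, limma), and that of Loxl2 with q at most 0.01 (0.0866). Without scaling all 10 were lower at day 3, Sparc and Thbs1 included, as were 61.2% of all genes, with 1.53% higher. Of the 142 regions found in MEF and not in ESC, 32 (22.5%) were present at day 3, against 12.8% of all such regions, and 18 of the 32 were at Fbn1. Without Fbn1 the share was 14.7%.

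Between day 3 and day 6, 4 genes fell (Fbn1, Lox, Thbs1 and Tnc) and 0 rose, while 14.6% of all genes tested fell and 35.8% rose. Without scaling 7 members fell and 0 rose, beside 41.4% and 0.329% of all genes. This step is also the step from unsorted to SSEA+ cells, and the sort and the days cannot be told apart. Fbn1 fell by 2.11 ± 0.31, Lox by 1.94 ± 0.36 and Thbs1 by 1.91 ± 0.32 (log2, SE; limma, adjusted p = 0.000644, 0.00215 and 0.00129), and Tnc went to 0. The Thbs1 call ended with windows of 2.5 and 10 kb (-1.38 and -1.57; limma, adjusted p = 0.175 and 0.0641), where Loxl2 was called instead, and the Tnc call with equal numbers of top peaks (0.0577). Lum was called lower with q at most 0.01 and without day 3 DG-3458 replicate 2 (limma, adjusted p = 0.0443 and 0.0105), both against day 6 at 0, and Sparc without day 6 DG-3458 replicate 1 (-0.28; limma, adjusted p = 0.016). Both batches with libraries of both days gave the same order for these 4 genes in coverage scaled to equal total length. In batch EA-3702 scaled coverage went from 10.2% to 4.65% at Fbn1, from 3.57% to 1.39% at Lox, from 10.4% to 3.70% at Thbs1 and from 3.37% to 0% at Tnc. In batch DG-3458 both day 6 libraries were below both day 3 libraries for all 4, at Fbn1 with 2.80% and 1.71% against 14.4% and 13.3%. Of the 142 regions, 0 were present at day 6, against 1.58% of all regions of that class.

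From day 6 to day 9 the calls depended on how the lists were put on one scale. Thbs1 was higher at day 9 by 1.27 ± 0.36 (log2, SE; limma, adjusted p = 0.0194), and by 3.10 without scaling. With windows of 2.5 and 10 kb its difference was 0.20 in both, and it did not pass (limma, adjusted p = 0.959 and 0.917). The Thbs1 call also ended with batch as a block (1.00, adjusted p = 0.102, limma), with equal numbers of top peaks (0.0568), with q at most 0.01 (0.109) and without day 9 replicate 1 (0.123) or replicate 2 (0.0595). Fbn1, Sparc and Loxl2 were lower, by limma with adjusted p = 0.0256, 0.0148 and 0.00592, and all 3 were above day 6 without scaling, where 6 members were higher and 0 lower beside 86.5% and 0% of all genes. The Sparc call ended with batch as a block (-0.52, adjusted p = 0.0720, limma), and with equal numbers of top peaks or windows of 2.5 and 10 kb (0.144, 0.141 and 0.491). That of Loxl2 ended with equal numbers of top peaks (adjusted p = 0.569, limma), with q at most 0.01 (0.791) and with both narrower windows, where no day 6 or day 9 library had a peak. That of Fbn1 ended with q at most 0.01 (limma, adjusted p = 0.0801) and without either day 9 library or day 6 DG-3458 replicate 1 (0.0516 to 0.163). Without day 9 replicate 1 the limma adjusted p was 0.0589 for Sparc and 0.0502 for Loxl2, and without replicate 2 it was 0.0927 for Sparc. These 3 of 10 lower and 1 of 10 higher stand beside 25.1% and 17.5% of all genes tested. Without day 9 replicate 1 there were 0 calls, beside 15.1% lower and 11.1% higher over all genes. Without day 9 replicate 2 there were 2, Loxl2 lower and Tnc, against day 6 at 0, higher (limma, adjusted p = 0.0323), beside 15.8% and 11.1%. In both fits the lone day 9 library is assumed to vary like the other stages. Fn1 did not pass (0.23, adjusted p = 0.0661, limma). It was called higher without scaling (2.14), with equal numbers of top peaks (0.83; limma, adjusted p = 0.00674), with q at most 0.01 (0.0296) and without day 3 DG-3458 replicate 2 (0.0282), and was just under 0, without passing, with windows of 2.5 and 10 kb. Dcn was called higher without scaling (2.58; limma, adjusted p = 0.00199) and without day 6 DG-3458 replicate 1, which leaves day 6 at 0. Lox was called lower without day 6 DG-3458 replicate 2 (-0.55; limma, adjusted p = 0.0367). It was called higher without scaling (1.49; limma, adjusted p = 0.0183) and with windows of 2.5 kb, there against day 6 at 0. Day 9 had libraries of batch EA-3702 only, and Thbs1 in the day 6 library of that batch was at 1.68%. Of the 142 MEF regions, 5 (3.52%) were present at day 9, against 5.65% of all, namely 1 each at Fn1, Fbn1, Lox, Thbs1 and Dcn.

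From day 9 to ESC, Fn1 rose by 0.68 ± 0.097 and Sparc by 1.43 ± 0.17 (log2, SE; limma, adjusted p = 0.000391 and 0.000153), and both rose without scaling too. Thbs1 fell by 3.54 ± 0.39 (limma, adjusted p = 8.33e-05), and by 3.24 without scaling. Fbn1 and Lox were lower with adjusted p = 0.0352 and 0.0463 by limma, calls that ended without scaling, with a pseudocount of 0.5, with equal numbers of top peaks and without any 1 of the MEF, day 9 or ESC libraries. That of Lox ended without any 1 of the day 3 libraries too, and with no filter or with q at most 0.01 (limma, adjusted p = 0.0590 and 0.352). Lum was called higher with windows of 2.5 kb. The 3 lower and 2 higher stand beside 29.8% and 21.1% of all genes tested, and 1 lower and 2 higher beside 11.8% and 21.7% without scaling. Without MEF replicate 1 or 2, day 9 replicate 1 or either ESC library, 3 calls were made in place of 5, and without day 9 replicate 2 Tnc was called lower (limma, adjusted p = 0.0279). Day 9 and ESC shared no batch, but days 3 and 6 had libraries of both batches, so that batch could be fitted as a block. With it Fn1, Sparc and Thbs1 were still called (0.73, 1.30 and -3.14; limma, adjusted p = 0.00258, 0.00269 and 0.00162), and Fbn1 and Lox were not (-0.80 and -0.78; adjusted p = 0.227 and 0.293, limma).

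**Figure D4:**
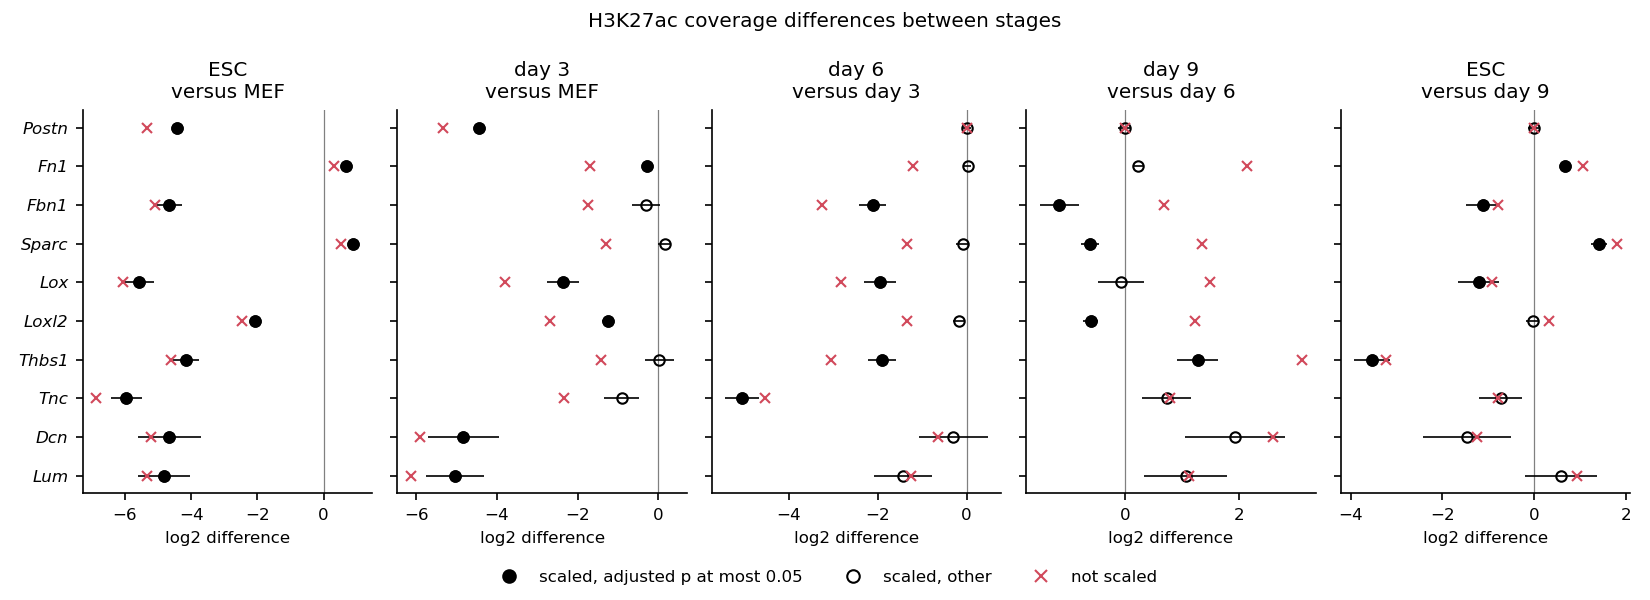
Log2 difference in H3K27ac coverage between stages for the 10 genes, scaled to equal covered length (circles with SE; filled where the limma adjusted p was at most 0.05) and without scaling (crosses). ESC against MEF separates Fn1 and Sparc from the other 8 in both, while crosses and circles lie on opposite sides of 0 for Fbn1, Sparc, Lox and Loxl2 in day 9 against day 6. Where a stage has no peak (Postn, Tnc and Lum in some panels) the position depends on the pseudocount.

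The windows held 32 KLF4 regions, a number that was not set against other windows of such length. Of these, 21 (65.6%) were present at day 3 and 12 (37.5%) in serum ESC, against 53.5% and 48.3% of all 33431 KLF4 regions. Of the 21, 13 (61.9%) were absent in serum ESC, against 40.4% of all, and 15 (71.4%) lay on H3K27ac peaks of both MEF libraries, against 48.7%. With q at most 0.01 the latter was 6 of 11 (54.5%), against 48.6%. Without the EA-3702 day 3 library it was 23 of 35 (65.7%, against 36.4%), and without the DG-4040 one 30 of 43 (69.8%, against 45.7%), presence then resting on 1 library. At day 3, 14 of the 21 (66.7%) had H3K27ac in at least 2 libraries, against 58.5%. Regions of 1 window share a gene, and no test was made on these shares.

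Fbn1, whose window is the longest of the 10 at 305.892 kb, had 6 KLF4 regions at day 3, 3 of them still present at day 6 and day 9 and none in serum ESC. KLF4 coverage of its window was 1.95% and 0.924% at day 3, 0.526% and 0.556% at day 6, 0.374% and 0.389% at day 9, 0% in both serum ESC libraries, and 0% and 0.0722% in 2i ESC. Both day 3 libraries were above all later ones. By limma this gave the lowest adjusted p of the 8 members tested in ESC against day 3 (0.00612). Along the gene, the region over the start printed above (chr2:125506337-125506921) and the one at the far end (chr2:125301907-125302527) were present at day 3, in 1 of 2 day 6 libraries and not later. The strongest at day 3 lies within the gene (chr2:125438224-125438728), with a −log10 p of 23.5 and 23.6 at day 3, 6.91 and 14.8 at day 6, and 5.88 and 3.36 at day 9. A region at chr2:125389328-125390171, chosen here after its values were seen, was present on all 3 days. The H3K27ac region around it (chr2:125388242-125391268) was absent in both MEF and both ESC libraries and found in 3 of 3 day 3, 2 of 3 day 6 and 2 of 2 day 9 libraries. In all, 4 of the 188 H3K27ac regions (2.13%) were present at day 3 and found in neither MEF nor ESC, 3 at Fbn1 and 1 at Tnc, against 4.71% of all regions.

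Tnc had a single KLF4 region, over its start (chr4:64046809-64047459). Its −log10 p was 9.61 and 3.39 in the day 3 libraries, and no later KLF4 library had a peak anywhere in the window. Tnc coverage was 0.471% and 0.236% at day 3. It passed the test in day 6 against day 3 (limma, adjusted p = 0.0466) and in ESC against day 3 (adjusted p = 0.0075, limma), both against stages at 0. With batch as a block the first call ended (limma, adjusted p = 0.0561), as it did without scaling (0.104) and with a pseudocount of 0.5. Without either day 3 library Tnc could not be tested. Leaving out any other library ended the first call, although the scaled difference stayed at -1.85 to -1.92, beside -1.86 with all libraries.

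Postn and Lox had no KLF4 consensus region. Postn had a KLF4 peak in 1 of 10 libraries, at day 3 (batch DG-4040), and Lox had 3 peaks in 1 of 10, at day 3 (batch EA-3702). Both missed the filter and were not tested. Dcn had a region over its start (chr10:97479192-97479686) at days 3, 6 and 9 and not in ESC. Its −log10 p was 13.7 and 3.84 at day 3, 4.40 and 9.56 at day 6, and 14.7 and 9.10 at day 9. No day 3 H3K27ac library had a peak there, whereas both MEF and both day 9 libraries had one over the start of Dcn. The second Dcn region, 2.07 kb from Lum (chr10:97562994-97563427), was the single KLF4 region of the Lum window and was present at day 3 and in serum ESC, with H3K27ac in ESC and none in MEF.

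Fn1 kept KLF4 throughout: 3 of its 7 regions were present at every stage, 2i ESC included. The strongest at day 3 and in serum ESC was the same, within the gene at chr1:71645863-71646710. Its −log10 p was 37.1 and 19.3 at day 3, 26.6 and 19.1 at day 6, 28.2 and 36.4 at day 9, 19.9 and 54.2 in serum ESC, and 61.2 and 17.3 in 2i ESC. This placed it between the 85.5th and 99.3rd percentile of each list. Both ESC H3K27ac libraries and neither MEF library had a peak over it. All 6 Fn1 regions of serum ESC were also present in 2i ESC. KLF4 regions were built from days 3, 6 and 9 and serum ESC, so a site bound in 2i alone was not counted. Among the 32 regions so built, these 6 were the only ones with both 2i libraries. Sparc had 5 and 9 KLF4 peaks in the 2i libraries, yet 0 of its regions were present there.

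At Sparc the strongest day 3 KLF4 region, within the gene (chr11:55416330-55417128), had a −log10 p of 47.8 and 30.3 at day 3 and 17.6 and 14.3 at day 6, and no peak at day 9 or in ESC. The single serum ESC region lay 3.00 kb beyond the start (chr11:55423079-55423384), with 3.67 and 10.2. At Thbs1 days 3, 6 and 9 had 3, 1 and 3 regions, and serum ESC had 1. The one of serum ESC lies 0.786 kb before the gene (chr2:118110436-118111089), with −log10 p 2.95 and 2.46 in ESC, close to the lowest values in the lists. Its strongest at day 3 lies over Fsip1 (chr2:118167554-118168077), with 7.29 and 4.59. Loxl2 had 3 at day 3 and 3 in serum ESC, 2 of them the same. The strongest of both stages (chr14:69732372-69732925) lies over the neighbour Chmp7, with 9.32 and 6.63 at day 3 and 7.01 and 6.08 in serum ESC.

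**Figure D5:**
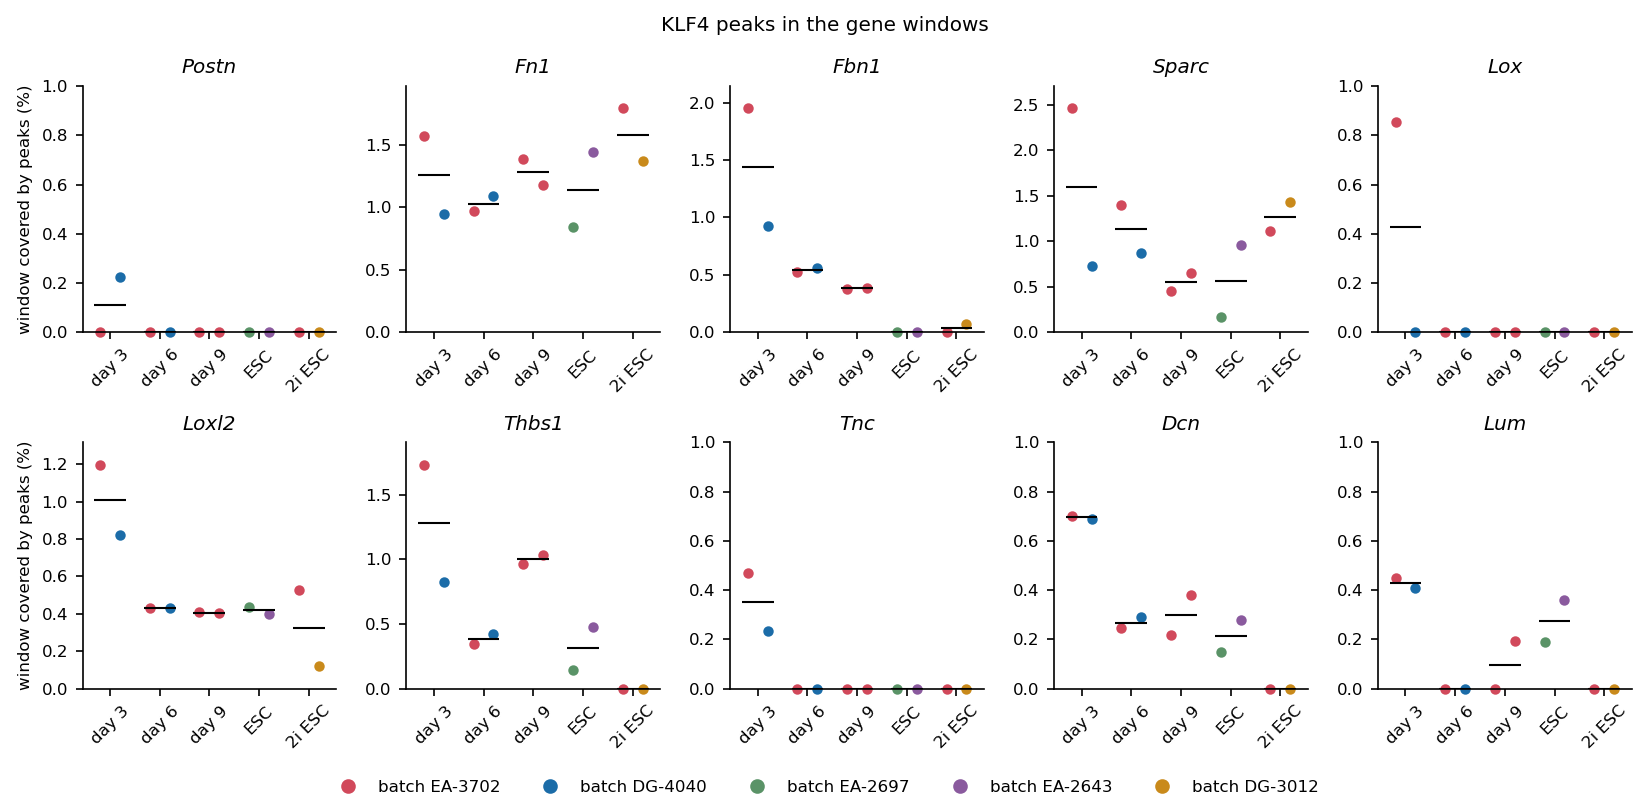
Percent of each window covered by KLF4 peaks, 1 point per library, coloured by batch, with a line at the mean of each stage; the y axis starts at 0. Fbn1 and Tnc have their highest points at day 3 and lie at or near 0 in ESC, Postn and Lox each have 1 library above 0, and Fn1 stays between 0.838% and 1.79% in all 10 libraries.

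Tests on KLF4 coverage called few members. In day 6 against day 3, 1 of 8 members tested was lower (Tnc), beside 0.159% of all genes tested. In day 9 against day 6, 0 of 8 changed by limma, as did 0% of all genes, and 1 member (Thbs1) and 1828 of 18861 genes had an unadjusted p under 0.05. ESC against day 9 called 1 member lower (Fbn1, adjusted p = 0.0192, limma), beside 3.18% of all genes, with both serum ESC libraries of Fbn1 at 0. It made 0 without scaling, where 1.08% of all genes were called in either direction, and 0 without any 1 of the day 9 and serum ESC libraries. All genes then gave 0% without either day 9 library or the EA-2697 serum ESC library, and 4.80% without the EA-2643 one. ESC against day 3 called 2 lower (Fbn1 and Tnc), beside 4.88%. In either direction it called 3 of 8 with a pseudocount of 0.5 (15.5% of all genes) and with equal numbers of top peaks (13.9%). Windows of 2.5 and 10 kb gave 3 of 8 too (5.86% and 7.42%). Without either day 3 library Tnc could not be tested and 1 of 7 members passed (Fbn1), beside 7.79% (without EA-3702) and 3.64% (without DG-4040) of all genes in either direction. The lone day 3 library is then assumed to vary like the other stages and both serum ESC libraries are at 0, so that the p is too small and shows nothing about how stable the call is. In 2i against serum ESC 0 of 8 passed by limma, beside 0.313% of all genes. There 4 members and 2125 of 18861 genes had an unadjusted p under 0.05, and the lowest adjusted p was that of Thbs1 (0.0574, limma), with KLF4 coverage of 0.142% and 0.479% in serum ESC and 0% in both 2i libraries. The 2 serum ESC lists differed in size (4.45 and 8.95 Mb), and they share no batch with the other stages.

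Another 65 non-collagen matrix genes were listed for comparison. In ESC against MEF, 44 (beside 25.5% of all genes) were lower and 8 (beside 36.4%) higher by H3K27ac, with a median log2 difference of -1.58 beside 0.21 over all genes. The 3 lowest were Ccn5, Thbs2 and Ccn3, each with no peak in ESC. Ccn5, a matricellular protein of the CCN family, had 26.8% and 27.03% of its window covered in MEF. Thbs2, a second thrombospondin, had 19.9% and 20.2%. Ccn3 had 8.24% and 9.98%. The 3 highest were Spock1, with no peak in MEF and 1.804% and 1.72% in ESC, Ltbp4, at 9.17% and 8.96% in MEF and 27.6% and 23.8% in ESC, and Lamc1, at 11.97% and 11.9% in MEF and 29.1% and 28.2% in ESC. Lamc1 codes for the gamma 1 chain of laminin, a basement membrane protein, and Ltbp4 for a protein that binds latent TGF-beta. At day 3 against MEF 26 of the 65 were lower and 9 higher, beside 17.6% and 29.2% of all genes, and at day 6 against day 3 27 and 12, beside 14.6% and 35.8%. Kera, one of the 65, lies in the window of Lum. By KLF4, 63 of the 65 could be tested: 0 changed between days 3, 6 and 9 or between the ESC media, 4 were lower and 4 higher in ESC against day 9, beside 3.18% and 5.01% of all genes, and 9 and 5 in ESC against day 3, beside 4.88% and 9.31%. At day 9 against day 6, 10 were lower and 16 higher by H3K27ac, beside 25.1% and 17.5%, and in ESC against day 9, 22 and 11, beside 29.8% and 21.1%. Of markers of other cell types in ESC against MEF, each a list of 4 and to be read beside 25.5% lower and 36.4% higher over all genes, endothelial genes were lower in 0 and higher in 2, macrophage genes 2 and 2, epithelial genes 1 and 2, skeletal muscle genes 1 and 0, and smooth muscle genes 3 and 0.

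Over the 12 H3K27ac libraries, the gene most like each member by Pearson's r of scaled log2 coverage, outside 1 Mb, was Vcam1 for Tnc (r = 0.996), Rbm22 for Fbn1 (0.985), Plpbp for Lox (0.985), Srfbp1 for Loxl2 (0.981) and Fras1 for Thbs1 (0.980). It was Ttll6 for Fn1 (0.974), Tnip3 for Lum (0.963), Slc9a9 for Dcn (0.959), Cbfa2t2 for Sparc (0.954) and Plg for Postn (1.00). These are descriptions over libraries that fall into 5 stages, and a gene with peaks in MEF only, as Postn, matches any other such gene: 242 genes had r over 0.95 with it, and 1 gene with Sparc. Srfbp1 is the neighbour of Lox and shares part of its window. Among the 10, Lox and Loxl2 were most alike (r = 0.919), followed by Postn and Lum (0.914) and by Fbn1 and Lox (0.907), and Fn1 and Thbs1 least (r = -0.74).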

How the data were processed

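Peak lists of 22 libraries (12 of H3K27ac, 10 of KLF4) were used; 13 input libraries were not analysed here. The submitters' processing notes name cutadapt 1.8.1, Bowtie2 2.2.5, deepTools 2.3.6, MACS2 2.1.1 and mm10, which is GRCm38. Each deposited list gives a score, a fold enrichment, a −log10 p and a −log10 q per peak, all the authors' own values. On the files, the score was found to be 10 times −log10 p cut to a whole number, with 2 exceptions or fewer per list. Read counts are not in the lists, so depth is unknown. Nothing in the labels says that replicates came from separate cultures, so p-values measure the spread between these samples, which may be technical.

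For each protein-coding gene the percent of gene and 50 kb to either side covered by peaks was computed, scaled to equal total covered length, and tested as log2(percent + 0.1) with limma 3.58.1 in R 4.3.3 on genes with a peak in at least 2 libraries, with Benjamini-Hochberg adjustment at 0.05. All stages of an antibody shared 1 fit. The test was first run on simulated data. Regions are merged peaks of at least 2 libraries of a stage, with 2i ESC left out when KLF4 regions were built. Present means at least 2 libraries, absent 0. The members and gene lists were chosen with earlier results of these data known. Named are all members, the best MEF H3K27ac region and best day 3 and serum ESC KLF4 regions by percentile of the score, all regions in ESC and not in MEF, and the 3 lowest and 3 highest of the other matrix genes. Alternatives were no scaling, other pseudocounts, filters, windows and peak cuts, batch and replicate blocks, and leaving out each library. Among the labels, antibody and strain numbers rise from sample to sample as in a filled spreadsheet column and were not used.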

Additional observations from a re-analysis of the deposited data

How the results depend on the processing

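Percentages in brackets are the share of all genes called, in either direction, under the same setting. In ESC against MEF all alternatives made 7 to 10 calls among the 10 genes (46.0 to 66.7%). The 7 were of 8 members tested, with equal numbers of top peaks. Without scaling, calls were 10 in day 3 against MEF (62.7%), 7 in day 6 against day 3 (41.8%), 3 in ESC against day 9 (33.6%), and by KLF4 0 in day 6 against day 3 (0.0159%) and 0 in ESC against day 9 (1.08%). With a pseudocount of 0.5 they were 3 in ESC against day 9 (53.6%), and by KLF4 0 in day 6 against day 3 (0.0795%) and 2 in ESC against day 9 (9.87%); with 0.02, or with no filter, 2 (0.896%) and 1 (0.717%) in 2i against serum ESC. With a batch block they were 2 in day 9 against day 6 (31.0%), 3 in ESC against day 9 (45.1%) and, by KLF4, 0 in day 6 against day 3 (0%). With equal numbers of top peaks they were 2 in day 9 against day 6 (17.9%), 3 in ESC against day 9 (49.4%) and, by KLF4, 0 in ESC against day 9 (7.91%). With q at most 0.01 they were 2 in day 9 against day 6 (42.9%) and, by KLF4, 0 in day 6 against day 3 (0%), 0 in ESC against day 9 (2.27%) and 1 in ESC against day 3 (4.93%). With 2.5 kb windows they were 2 in day 9 against day 6 (42.1%) and, by KLF4, 1 in day 9 against day 6 (1.49%), 3 in ESC against day 9 (4.85%) and 1 in 2i against serum ESC (1.93%); with 10 kb, 2 (41.5%), 1 (1.40%) and 2 (5.47%) in the first 3 of these. The cause was not tested.

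With the replicate block, H3K27ac calls were 10, 5, 4, 0 and 3 in the order ESC against MEF, day 3 against MEF, day 6 against day 3, day 9 against day 6 and ESC against day 9, beside 59.9%, 43.5%, 45.7%, 14.6% and 32.9% of all genes, and the same member counts came with day 6 numbers exchanged (59.7%, 43.5%, 45.6%, 13.5% and 32.7%), which was added after seeing the data because peak names carry the other number. No pairing by number was seen: correlations of the differences between numbers 1 and 2 were -0.00159 to 0.0219 over 6 pairs of stages. Values near 0 cannot exclude a pairing, since noise in the lists could hide it.

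Leaving out 1 library gave 9 to 10 (49.1 to 66.7%), 4 to 6 (31.4 to 51.9%), 4 to 5 (42.8 to 53.0%), 0 to 5 (26.1 to 51.8%) and 3 to 5 (34.8 to 57.2%) calls by H3K27ac in the same order. By KLF4 it gave 0 to 0 in day 6 against day 3 (0 to 0.375%), 0 to 0 in day 9 against day 6 (0%), 0 to 1 in ESC against day 9 (0 to 9.41%), 1 to 2 in ESC against day 3 (1.43 to 15.9%) and 0 to 0 in 2i against serum ESC (0 to 0.0161%). Where this leaves 1 library of a stage, it is assumed to vary like the other stages. Regions found in MEF and not in ESC ranged from 143 to 211, in both from 16 to 18, in ESC and not in MEF from 19 to 37, KLF4 at day 3 from 35 to 43, in serum ESC from 13 to 23 and at day 3 on MEF H3K27ac from 15 to 30, since presence then rests on 1 library. With presence in any library, regions in ESC and not in MEF were 33, KLF4 at day 3 56, in serum ESC 24 and at day 3 on MEF H3K27ac 41. With equal numbers of top peaks, regions were 31 in MEF and not in ESC, 8 in both, 4 in ESC and not in MEF and 9 at day 3 on MEF H3K27ac; with q at most 0.01, 11 in ESC and not in MEF, 11 by KLF4 at day 3, 4 in serum ESC and 6 on MEF H3K27ac. Windows of 2.5 kb held 66, 5, 5, 12, 6 and 8 in the order above, and 10 kb 77, 6, 7, 12, 7 and 8, since they are narrower.

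Directions turned for these members (log2). Without scaling, Sparc and Thbs1 were at -1.28 and -1.42 in day 3 against MEF, Fn1 at -1.20 in day 6 against day 3, and Fbn1, Sparc, Lox and Loxl2 at 0.68, 1.34, 1.49 and 1.23 in day 9 against day 6. With equal numbers of top peaks Fbn1 was at 0.85 in ESC against day 9, where day 9 had no peak and 1 ESC library had one. With 2.5 and 10 kb Fn1 was at 0.36 and 0.30 in day 3 against MEF. The remaining values are against a stage with no peak in the narrower window, so their size is set by the pseudocount and only their sign can be read: Lox at 4.28 and 3.49 in day 9 against day 6, and Thbs1 by KLF4 at -4.20 and -3.46 in day 9 against day 6 and 3.87 and 3.14 in ESC against day 9. Of all values for single members, 1704 kept direction and side of the threshold, 96 lost and 35 gained a call, and 16 turned. The lists hold only peaks past the caller's threshold, so a window at 0 may hold weaker signal.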

Other observations

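At Thbs1, 2 H3K27ac regions over its neighbour Fsip1 were present at day 9 and had no peak in MEF, day 3 or day 6, and both were chosen here after their values were seen. The farther one (chr2:118174108-118176009) had a −log10 p of 22.1 and 24.3 at day 9 and 3.52 and 5.29 in ESC, and the other lies at chr2:118156137-118157159. A day 9 KLF4 region overlapped each of them (chr2:118174776-118175299 and chr2:118155935-118156221).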
